A study of Homo sapiens with 17 samples.

Results

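TARDBP, the gene that encodes the RNA-binding protein TDP43, was described across the 17 libraries of an acRIP-seq experiment. It was taken as the 1 row of that name among 23368 genes in the count table. The libraries were made from poly(A) RNA of HEK293T, a human embryonic kidney cell line. Cells of genotype WT gave 3 input libraries, 3 libraries of RNA pulled down with an antibody against N4-acetylcytidine (ac4C, IP) and 2 libraries pulled down with control immunoglobulin G (IgG). Cells labelled siTDP43, in which small interfering RNAs (siRNAs) had been used against TARDBP, gave 3 input, 3 IP and 3 IgG libraries. No control siRNA is named for WT, so transfection, the siRNA itself and any difference of batch or cell stock between the genotypes cannot be told apart.

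TDP43 is a mostly nuclear protein of the hnRNP class. It binds UG-rich RNA through its RNA recognition motifs, keeps cryptic exons out of mature mRNA and is known for the inclusions it forms in amyotrophic lateral sclerosis and frontotemporal dementia. It also binds the 3' end of its own mRNA and lowers the level of that mRNA, so that TARDBP is a gene whose product regulates its own transcript. In the study TDP43 was examined as a partner of NAT10, the acetyltransferase that writes ac4C, together with the poly(C)-binding proteins PCBP1 and PCBP2.

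The sense strands of the siRNAs against TARDBP listed by the study are shown because the whole siTDP43 group rests on them. The capitals mark the 19 bases that match the genome and the small letters the overhang.
siRNA 1: GGCUGGUAGAAGGAAUUCUtt
siRNA 2: GUCACAGCGACAUAUGAUAtt

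TARDBP lies on the plus strand of chromosome 1, from 11072679 to 11085549 in hg19, and the annotation of the table gave it 6 exons of 4217 bases in all. The coding sequence of 1242 bases begins in exon 2 and ends in exon 6, an exon of 3369 bases of which 528 are coding. The target of siRNA 1 was found at chr1:11073948-11073966 in the coding part of exon 2, and that of siRNA 2 at chr1:11078873-11078891 in the coding part of exon 4. Both targets therefore lie upstream of the long last exon. siRNA 2 had no other perfect match in the genome. siRNA 1 also matched without mismatch a place in an exon of LOC643387 (chr2:239140685-239140703), which is a processed copy of TARDBP, and 1 place on another chromosome outside the exons of the table. Neither the labels nor the table show which of the siRNAs went into a given library, and a count per gene does not show where along the mRNA a read came from.

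**Figure D1:**
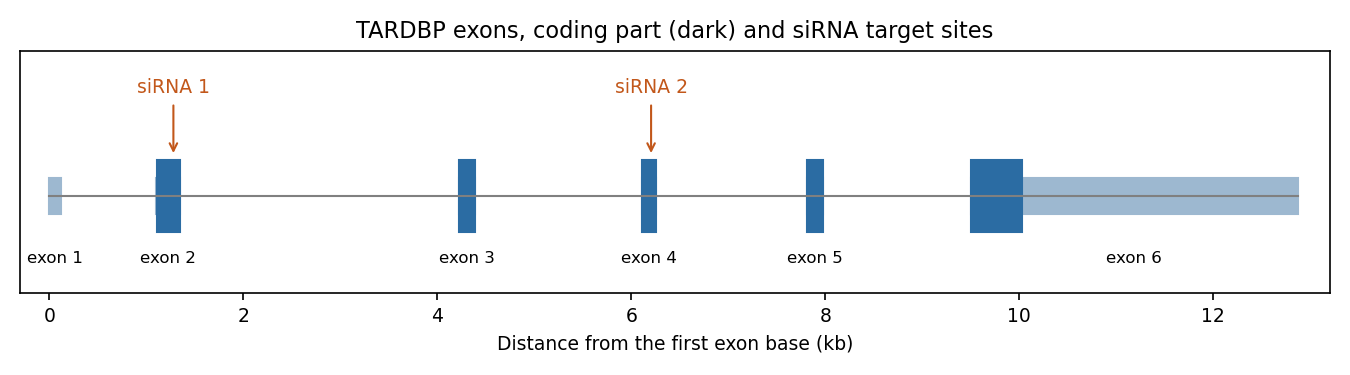
Map of TARDBP to scale, in kilobases from the first exon base; pale boxes are untranslated exon parts, dark boxes coding parts, and arrows the siRNA targets. Both siRNAs match coding sequence, in exon 2 and in exon 4, and most of the exon bases lie downstream in exon 6.

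The sequence motif that TDP43 is best known to bind was present in the last exon. TGTGTG, the DNA spelling of the UG repeat, was searched on the transcript strand with overlaps counted, and TARDBP held 2 matches, both in exon 6. This is no distinguishing feature, since 79.2% of 2032 genes with exon length within 10% of that of TARDBP held at least 1 match, with a median of 2. The stretch of 30 bases with the most TG and GT steps in exon 6 (15 of 29) lies in its untranslated part at chr1:11083805-11083834. It is shown because TDP43 is known to bind UG-rich RNA, but whether TDP43 binds this stretch was not tested. The capitals mark TGTGTG.
TARDBP exon 6, untranslated: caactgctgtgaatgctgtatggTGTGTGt

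The exons of TARDBP had a GC content of 40.8%, against a median of 49.4% over genes, and 15.9% of genes had a lower one. Copies of the TARDBP transcript were sought in the genome because reads can be lost to them, and 5 were found, with 74.9 to 90.1% identity. The closest, of 90.1% identity, was the only one over an exon of a gene in the table, LOC643387. Its counts were 0 to 25 per library, against 163 to 6172 for TARDBP, so its reads were few beside those of TARDBP. Reads of TARDBP that align equally well to a copy were dropped by the study's use of uniquely aligned reads, and their number is not known here.

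The question asked of the input libraries was how far the targeted mRNA had fallen in siTDP43 cells. TARDBP was lower in siTDP43 input, at 67.2% of its WT level. Counts were 4527, 6172 and 5307 in the 3 WT inputs and 3128, 2580 and 2989 in the 3 siTDP43 inputs. Scaled to library size by the trimmed mean of M-values (TMM), these were 149.7, 157.0 and 151.3 CPM (counts in a library size of 1000000) in WT and 98.7, 102.2 and 106.0 CPM in siTDP43. The groups did not overlap, and the spread within each was small: 153 ± 3.87 CPM (SD, n = 3) in WT against 102 ± 3.67 CPM (SD, n = 3) in siTDP43. The log2 difference was -0.57 (SE 0.045, edgeR quasi-likelihood test, adjusted p = 6.55e-13), with an approximate 95% interval of -0.66 to -0.48. In an exact two-sided permutation test of CPM p was 0.1, the smallest that 3 libraries against 3 can give.

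A fall of this size was not rare among the genes of the same libraries. Of 14036 genes tested between the inputs, 79.2% passed an adjusted p of 0.05 and 40.6% passed with a lower level in siTDP43, and 32.5% of the genes had a lower log2 difference than TARDBP. The median gene tested stood at -0.05, and TARDBP lay 0.52 below it (difference -0.52). The way in which libraries are scaled moved the median gene from -0.14 with total counts to 0.38 with GAPDH, the glycolytic enzyme used as the reference of the study's qPCR. TARDBP moved with it and stayed at -0.52 relative to the median gene under the 4 scalings tried (TMM, DESeq2 size factors, total count and GAPDH). A scaling moves all genes of a library alike, so this distance could hardly change and is no test of the fall.

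Against GAPDH itself the fall of TARDBP was much smaller. There were 24.1, 24.9 and 24.4 counts of TARDBP per 1000 of GAPDH in the WT inputs and 20.9, 22.5 and 23.4 in the siTDP43 inputs, which again did not overlap. The siTDP43 mean was 90.8% of the WT mean (exact permutation p = 0.1), and the edgeR log2 difference with libraries scaled to GAPDH was -0.14 (adjusted p = 0.0154). GAPDH was the other term that moved: it had 6233 ± 57.2 CPM (SD, n = 3) in WT input and 4601 ± 109 CPM (SD, n = 3) in siTDP43 input, a log2 difference of -0.43 (SE 0.031, edgeR adjusted p = 9.86e-14). The study examined its knockdowns by RT-qPCR relative to GAPDH and by western blot, against a control siRNA. It described the targeted RNA and protein as strongly reduced. That control is not the WT of these libraries, and protein was not measured here. Whether the cells of either group held more or less RNA in all was not measured, and a share of the library cannot tell a loss of TARDBP mRNA from a rise of other RNA.

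**Figure D2:**
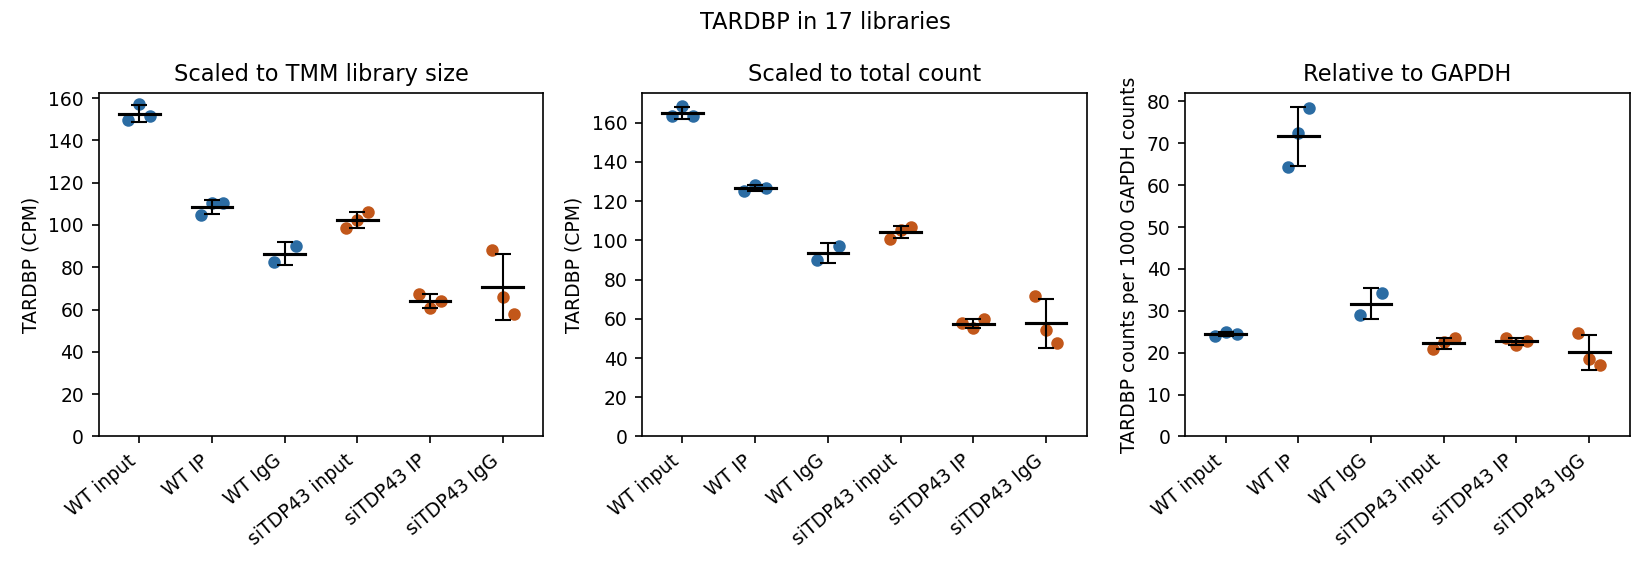
TARDBP in each of the 17 libraries (points), with group means (thick bars) and SD (whiskers), as CPM scaled to the TMM library size, as CPM of the total count, and per 1000 counts of GAPDH. The WT inputs stand highest on both CPM scales, while relative to GAPDH the WT IP libraries stand highest, at 64.3 to 78.4.

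TARDBP mRNA was still well expressed in siTDP43 cells. Per exon length its level was 39.2 ± 0.726 FPKM (the count per kilobase of exon, scaled to the total count, SD, n = 3) in WT input and 24.7 ± 0.744 FPKM in siTDP43 input. It ranked 2135 to 2206 among all genes of a WT input library by FPKM and 3015 to 3138 in a siTDP43 input library. That placed it above 86.6 ± 0.320% of the genes with a count in WT input and above 80.3 ± 0.344% in siTDP43 input (SD, n = 3 each).

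The IP libraries showed the same direction. TARDBP had 104.8, 110.3 and 110.3 CPM in WT IP and 67.5, 60.6 and 64.0 CPM in siTDP43 IP, without overlap. The log2 difference was -0.78 (SE 0.077, edgeR adjusted p = 2.41e-08), or 58.4% of WT, in a comparison in which 83.1% of the genes tested passed and 46.5% were lower. Relative to the median gene, at -0.23, TARDBP stood at -0.54, close to its place in the inputs.

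In the IgG libraries no difference was found. The WT IgG values were 82.4 and 90.3 CPM, and the siTDP43 IgG values 88.1, 66.0 and 58.0 CPM, so that 1 siTDP43 library lay between the WT libraries. The log2 difference was -0.24 (SE 0.168, edgeR adjusted p = 0.197) with an approximate 95% interval of -0.57 to 0.09, while 79.9% of the genes tested passed. These siTDP43 IgG libraries were the shallowest of the series, with 3013989 to 3436811 counts in all and 240, 163 and 163 counts of TARDBP. Without the first of them the value was -0.43 (adjusted p = 0.0236), and scaled to the total count it was -0.70 (adjusted p = 0.00106), when the median gene stood at -0.76. In CPM of the total count the siTDP43 IgG libraries had 71.6, 54.1 and 47.4.

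Taken by mean CPM, the order of the 6 groups was WT input, WT IP, siTDP43 input, WT IgG, siTDP43 IgG and siTDP43 IP. WT input stood apart from the rest at 153 CPM. WT IP (108 ± 3.18, SD, n = 3) and siTDP43 input overlapped, as did WT IgG (86.3 ± 5.52, SD, n = 2) with siTDP43 IgG (70.7 ± 15.6, SD, n = 3), and siTDP43 IgG with siTDP43 IP (64.0 ± 3.45, SD, n = 3). The coefficient of variation was 22.1% in siTDP43 IgG and at most 6.40% in the other groups. Per 1000 counts of GAPDH the order changed, with WT IP first at 71.7 ± 7.05 (SD, n = 3), WT IgG second at 31.7 ± 3.68 (SD, n = 2) and then WT input at 24.5 ± 0.423 (SD, n = 3). The 3 siTDP43 groups came last on that scale and overlapped as neighbours.

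The pull-down was examined next, to see whether the mRNA of the knocked-down gene was itself among those recovered with the ac4C antibody. In WT cells TARDBP was lower in IP than in input, with a log2 difference of -0.49 (SE 0.056, edgeR adjusted p = 2.46e-08), in a comparison in which 84.4% of the genes passed. It was higher in IP than in IgG by 0.31 (SE 0.068, adjusted p = 0.000255), where 81.1% passed. The median gene stood at 0.29 in the latter comparison, so that TARDBP was placed at the middle of all genes, with 50.2% of them below it. Control IgG also recovered less TARDBP than input held (-0.80, SE 0.068, adjusted p = 1.44e-10), where 83.3% of the genes passed.

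In siTDP43 cells TARDBP was again lower in IP than in input, by a log2 difference of -0.52 (SE 0.108, edgeR adjusted p = 0.00016, 78.9% of the genes passed). IP and IgG did not differ by the test (-0.22, SE 0.125, adjusted p = 0.126, 73.5% of the genes passed), with an approximate 95% interval of -0.46 to 0.03. That comparison turned on 1 library, since it passed without the third siTDP43 IgG library (-0.35, adjusted p = 0.0174). IgG was below input by -0.30 (SE 0.121, adjusted p = 0.0248, 83.3% of the genes passed). This last value is weak: without the second or the third siTDP43 input library, or without the second or the third siTDP43 IgG library, it lay between -0.18 and -0.31 and its adjusted p between 0.0534 and 0.164, and without the first siTDP43 IgG library it was -0.51.

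A gene was taken here as ac4C(+) if edgeR gave more than 2-fold in IP over both input and IgG, each with an adjusted p under 0.05. The study's own rule was another one, with ratios of FPKM, other tests and a stricter class over IgG. The rule used here was met by 15.6% of the genes tested in WT and by 10.3% in siTDP43, and TARDBP met it in neither genotype. Scaling to GAPDH turned the sign of WT IP against input, to 1.55 (adjusted p = 7.35e-15), and raised WT IP against IgG to 1.18 (adjusted p = 1.85e-10), both beyond 2-fold. The median gene then stood at 2.04 and 1.16, and TARDBP at -0.49 and 0.02 relative to it, a distance that a scaling leaves nearly unchanged for any gene. GAPDH itself went from 6233 CPM in WT input to 1520 ± 111 CPM (SD, n = 3) in WT IP and stood at 2734 ± 143 CPM (SD, n = 2) in WT IgG, so its share of the library differed between the kinds of library. In siTDP43 the values scaled to GAPDH were 0.034 over input and 0.18 over IgG, and neither passed.

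**Figure D3:**
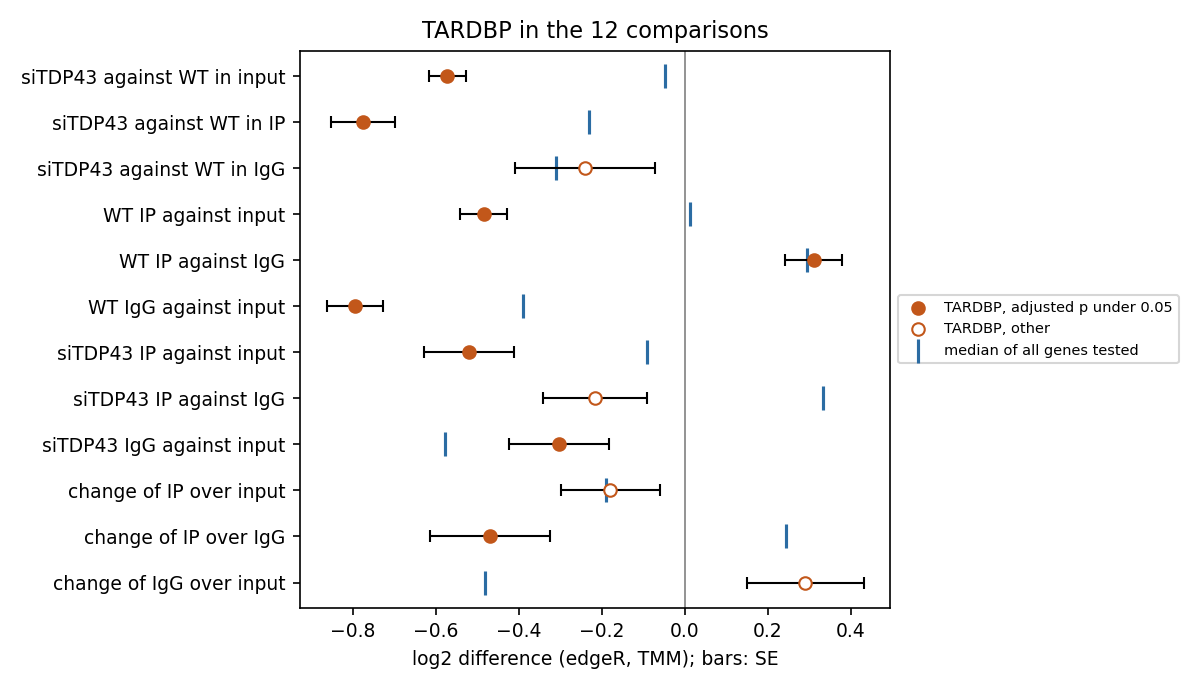
TARDBP log2 difference in the 12 comparisons, with SE as bars; filled circles passed an edgeR adjusted p of 0.05, open circles did not, and blue ticks mark the median of all genes tested. Between the genotypes TARDBP lies left of the median gene in input and IP and near it in IgG, and it lies at the median gene in WT IP against IgG and in the change of IP over input.

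Whether the recovery of TARDBP differed between the genotypes was tested as an interaction in a fit of all 17 libraries. The change of IP over input, siTDP43 minus WT, was -0.18 (SE 0.119, edgeR adjusted p = 0.182), with an approximate 95% interval of -0.41 to 0.05, and 67.8% of the genes passed. The median gene changed by -0.19, so TARDBP differed from it by 0.01. The call depended on the scaling and the tool: the change passed with total counts (-0.48, adjusted p = 0.000462, median gene -0.48), with GAPDH (-1.52, adjusted p = 5.19e-12, median gene -1.51), with DESeq2 (-0.24, adjusted p = 0.0227) and with limma (-0.44, adjusted p = 0.012). The change of IP over IgG was -0.47 (SE 0.144, adjusted p = 0.00462), where 60.8% of the genes passed and the median gene rose by 0.24. The change of IgG over input was 0.29 (SE 0.140, adjusted p = 0.0697, 64.4% of the genes passed). TARDBP was thus placed lower over IgG, and about at the median over input. The change over IgG rested in part on the first siTDP43 IgG library, without which it was -0.28 (adjusted p = 0.0793).

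The values of TARDBP depended on a correction for exon GC content, though the GC trend of each library is not given here. With a trend of level on exon GC removed from each library, TARDBP was compared with genes of like GC. Its log2 difference between the genotypes was then -0.87 in input, -1.12 in IP and 0.31 in IgG (edgeR adjusted p = 5.92e-19, 4.21e-11 and 0.112). WT IP against input then became 0.11 (adjusted p = 0.0513), and siTDP43 IgG against input became 1.06 (adjusted p = 1.12e-07). Depth differed with the kind of library and with the genotype. Input libraries held 24542434 to 36583436 counts, IP libraries 8610070 to 21066215 and IgG libraries 3013989 to 9466855. The siTDP43 IP and IgG libraries were each shallower than those of WT.

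The inputs also differed in antiviral genes and in markers of the cell line. Of 11 interferon-induced and antiviral genes, 9 could be tested between the inputs and 9 were lower in siTDP43, beside 40.6% of all genes tested. Their summed level was 1617 to 1625 CPM in the WT inputs and 34.6 to 34.7 CPM in the siTDP43 inputs. CCL5, CXCL10, RSAD2 and OAS1 were at 0 in every siTDP43 input. OAS1 was too low to test between the inputs and was also at 0 in every WT IP and WT IgG library. Of the 5 markers set for HEK293T, VIM, KRT8 and KRT18 were expressed in both genotypes, while PAX2 and LHX1 did not exceed 1.37 and 1.22 CPM in the inputs. The summed level of these 5 was 1093 to 1116 CPM in WT and 372 to 405 CPM in siTDP43 input, and 4 of the 4 tested were lower, beside the same 40.6%. PTPRC, PECAM1 and DDX4, markers of leukocytes, endothelium and germ cells, were at 0 in every input, and ALB, of hepatocytes, did not exceed 0.119 CPM. In the IgG libraries these 4 markers summed to 0.873 to 3.70 CPM in WT. In siTDP43 IgG they summed to 1.62 to 7.83 CPM, with PTPRC, PECAM1 and ALB at 0 throughout. The part of the differences between the inputs in the fall of TARDBP was not tested.

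NAT10 and the genes of adaptors that the study names for it did not move together in the inputs. NAT10 was higher in siTDP43, at 112 ± 4.0 CPM (SD, n = 3) against 51.5 ± 0.806 CPM (SD, n = 3, log2 difference 1.12, SE 0.050), and so was THUMPD1, the adaptor of NAT10 for tRNA (0.74, SE 0.073). PCBP1 fell by 0.82 (SE 0.054) and PCBP2 fell by 1.33 (SE 0.050) on the log2 scale, each by more than TARDBP. All 4 passed (edgeR adjusted p from 6.81e-21 to 1.11e-10), against 38.6% of genes higher and 40.6% lower. The exons of PCBP2 overlap an antisense gene, and since it is not stated whether counting used strand its value is uncertain.

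In the pull-downs the order differed. PCBP1 and PCBP2 were lower in siTDP43 both in IP (-0.99 and -0.70) and in IgG (-1.84 and -0.98), and passed in both. NAT10 passed in neither, with 58.1 ± 6.91 CPM (SD, n = 3) in WT IP, 58.7 ± 6.40 CPM (SD, n = 3) in siTDP43 IP and a log2 difference of 0.03 in IgG (SE 0.180, edgeR adjusted p = 0.898). THUMPD1 was higher in IP (0.79) and lower in IgG (-0.85), and passed in both. The change of IP over input was -1.10 for NAT10 (SE 0.146, adjusted p = 2.78e-08), 0.65 for PCBP2 (SE 0.083, adjusted p = 9.89e-09), -0.15 for PCBP1 (adjusted p = 0.143) and 0.07 for THUMPD1 (adjusted p = 0.755). Over IgG it was 0.92 for PCBP1, 0.34 for PCBP2 and 1.71 for THUMPD1, each of which passed, while NAT10 did not pass (0.037, SE 0.173). The change of IgG over input was -1.14 for NAT10, -1.07 for PCBP1, -1.64 for THUMPD1 and 0.31 for PCBP2, and these 4 passed. Of all genes tested, 83.1% passed between the genotypes in IP and 79.9% in IgG. For the changes, 67.8% passed for IP over input, 60.8% for IP over IgG and 64.4% for IgG over input.

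Proteins related to TDP43, which share its kind of RNA recognition motif and unstructured tail or act with it, went both ways. Of 12 tested in the inputs 6 were higher and 6 lower in siTDP43, beside 38.6% higher and 40.6% lower over all genes tested. Their median log2 difference was 0.0062, and that of all genes -0.05. HNRNPM, a splicing regulator, rose by 1.41 (SE 0.044), and EWSR1, an RNA-binding protein, by 1.27 (SE 0.037). TAF15, a factor associated with RNA polymerase II transcription, had -1.85 (SE 0.164), the largest difference of the 12, and 16.2 ± 1.68 CPM (SD, n = 3) in WT input. Among these 12 and TARDBP, ranked by FPKM, TARDBP was 7th in WT input, between HNRNPAB (47.0 FPKM) and HNRNPA1 (36.6 FPKM), and 7th in siTDP43 input, between MATR3 (39.4 FPKM) and TIA1 (20.8 FPKM). Scaled to GAPDH, which itself had -0.43, every gene moves up alike, and the signs of MATR3 (-0.26) and HNRNPA3 (-0.34) turn. In IP 3 of the 12 were higher and 7 lower (median -0.86, all genes -0.23, 36.7% of all genes tested passed as higher and 46.5% as lower). In IgG 3 were higher and 7 lower (median -0.33, all genes -0.31, 34.8% passed as higher and 45.1% as lower).

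Transcripts whose splicing TDP43 is known to control were measured as whole genes, which does not show their exons. Of 14, STMN2, UNC13A and ELAVL3, which are neuronal, were too low to test in the inputs, with at most 10 counts in an input library. Of the 11 tested 6 were lower, 2 higher and 3 did not pass, beside 40.6% lower and 38.6% higher over all genes tested. Their median was -0.39, and that of all genes -0.05. HDGFRP2 had -2.95 (SE 0.230) and AGRN, a basement membrane proteoglycan, -2.52 (SE 0.190), while CAMK2B, a calcium-dependent kinase, rose by 1.54 (SE 0.316). All 3 were low, at 6.09, 8.94 and 0.797 CPM on average in WT input. POLDIP3, in which TDP43 is known to keep an exon, fell by 0.52 on the log2 scale (SE 0.043, edgeR adjusted p = 2.05e-12), about as far as TARDBP.

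Importins, which carry TDP43 and like cargo into the nucleus, also split. KPNA6 rose by 2.00 (SE 0.052), KPNA2 by 1.16 (SE 0.038) and KPNA1 by 1.0 (SE 0.046). KPNA4 had -1.53 (SE 0.076), and KPNB1, the beta subunit that docks cargo at the pore, -0.85 (SE 0.047). KPNA3 did not pass (0.14, SE 0.069, edgeR adjusted p = 0.0559). The median of the 6 was 0.57, and that of all genes -0.05, with 38.6% of all genes tested higher and 40.6% lower.

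**Figure D4:**
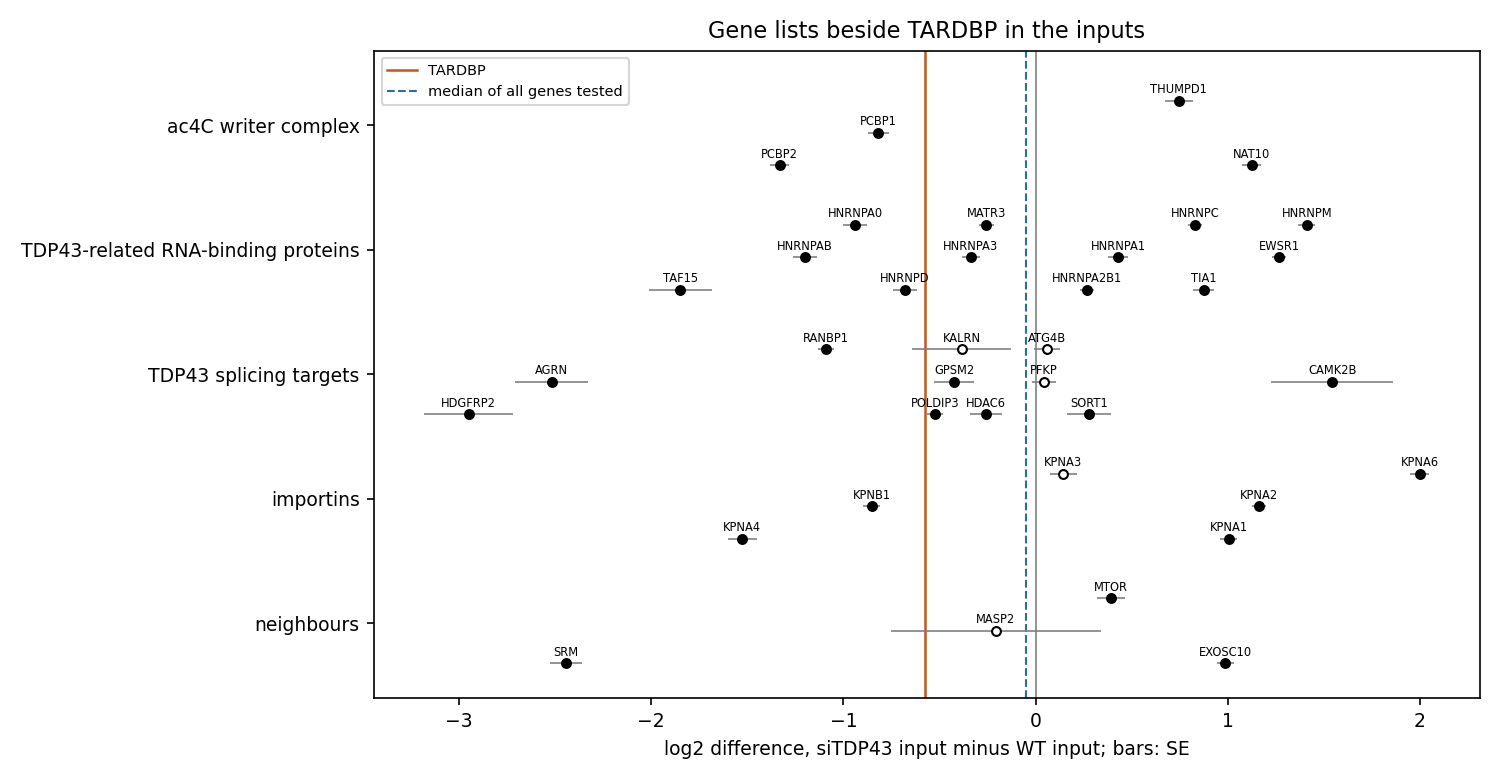
Log2 difference between siTDP43 and WT input of each tested gene (points, bars are SE), by list; filled points passed an edgeR adjusted p of 0.05. Each of the 5 lists plotted (writer complex, related proteins, splicing targets, importins and neighbours) has members on both sides of TARDBP (orange line, -0.57) and of the median of all genes tested (dashed, -0.05). The list labelled as the writer complex holds NAT10, PCBP1, PCBP2 and the tRNA adaptor THUMPD1.

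The genes next to TARDBP on chromosome 1 went both ways between the inputs. Of 5 genes within 100 kb, SRM, the spermidine synthase, had -2.44 (SE 0.082) between the inputs, EXOSC10, a nuclease of the RNA exosome, had 0.99 (SE 0.045), and MTOR, the growth-regulating kinase, had 0.39 (SE 0.073). These 3 passed (edgeR), beside 79.2% of all genes tested. MASP2, a protease of the complement system, lies on the opposite strand, and its 3' end is 1031 bases beyond the end of TARDBP. It had 0 to 92 counts per library, with 53 to 92 in WT IP and 0 in every siTDP43 IP library. C1orf127 had at most 12 counts. Between the genotypes in IP, 3 of the 4 neighbours tested were lower, as TARDBP was, and 0 were higher. Their median was -1.23, and that of all genes -0.23, with 46.5% of all genes tested lower. In IgG 2 were higher and 1 lower. No exon of the table's neighbours reaches into TARDBP, so its counts hold no reads assigned across a shared exon.

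The genes whose level was most like that of TARDBP were named by Pearson's r of log2 CPM over the 17 libraries, among 10140 genes with a mean of at least 100 counts. They were ALDOA, the glycolytic aldolase (r = 0.950), SLC3A2, the heavy chain of amino acid transporters (r = 0.950), TMEM39B (r = 0.948), C2orf43 (r = 0.946) and CT45A5, a cancer/testis antigen (r = 0.940). The median r was 0.14, and 0.266% of the genes were over 0.9. The points share 6 groups and their depth, so r mostly describes the order of the group means. The size of the differences was not alike: between the inputs SLC3A2 had -1.63 and C2orf43 -4.04, against -0.45 for ALDOA and -0.57 for TARDBP. In the siTDP43 IP and IgG libraries C2orf43 and CT45A5 had no count. Both were highest in WT input, at a mean log2 CPM of 4.17 and 4.23, where TARDBP was also highest. They passed the filter of 100 counts mainly through that group, so their r rests largely on it and on libraries without a count.

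**Figure D5:**
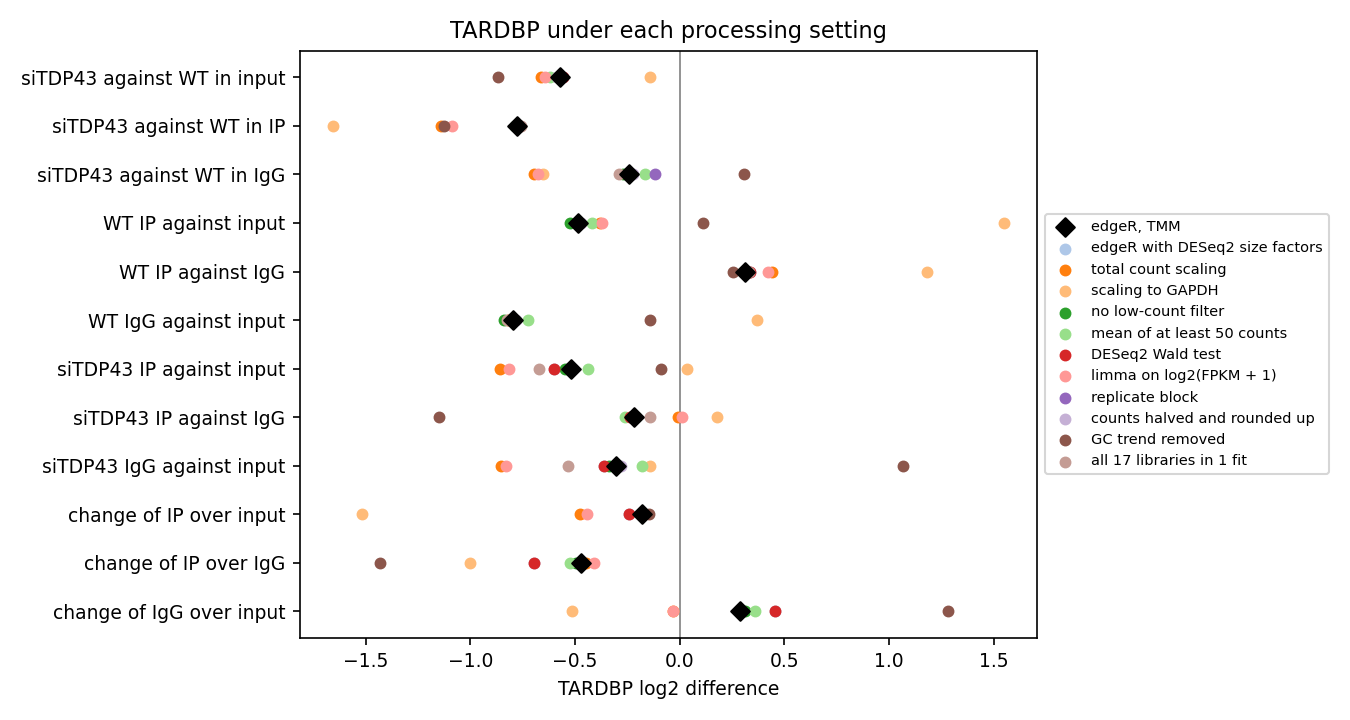
TARDBP log2 difference in the 12 comparisons under each way of processing (circles) beside the edgeR TMM value (diamonds). The values between genotypes in input and IP stay left of 0 throughout, from -0.87 to -0.14 and from -1.65 to -0.76, while those within a genotype and in IgG cross 0 under at least 1 setting, except WT IP against IgG.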

How the data were processed

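The samples were 17 acRIP-seq libraries of HEK293T poly(A) RNA, grouped by the titles and descriptions of the samples. The authors trimmed reads with Trim Galore 0.6.7, aligned them to hg19 with STAR 2.7.10a, kept uniquely aligned reads and deposited raw counts per gene from featureCounts 2.0.2, without normalization; tool versions are those in the submitters' processing notes. Which annotation release was used, whether counting used strand and how read pairs were treated is not given in the sources used here. Of counts from 1 to 20, 81.3 to 95.9% were even, so each mate of a pair seems to have added its own count. There were no molecular identifiers, and p-values measure the spread between these libraries, which may be technical, since nothing in the labels shows that replicates were separate cultures. Total counts were 3013989 to 36583436 per library; 4188 of 23368 genes had no count. Recovery is relative within a library, as reads of the acetylated spike-in were not analysed here.

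All genes entered edgeR 4.0.16 under R 4.3.3 (quasi-likelihood F test, two-sided, TMM, filterByExpr with a minimum count of 10, Benjamini-Hochberg over all genes tested, adjusted p under 0.05). Comparisons between genotypes used the 6 input, 6 IP or 5 IgG libraries, those within a genotype its 8 or 9 libraries, and interactions all 17. SE was the log2 difference over the square root of F. The study used DESeq2, which is an alternative here (1.42.0), as are limma 3.58.1 on log2(FPKM + 1), other scalings, filters, halved counts, a GC trend removed, the replicate number as a factor and leaving out each library. FPKM was computed from the counts, the deposited exon lengths and the total count. Sequence was read from GRCh37, whose coordinates are those of hg19; 95.7% of 196970 introns of the table had GT and AG ends there. The siRNA sequences were taken from the study's supplementary text. Tested on simulated data with 200 genes changed 2-fold, the edgeR fits of 6 of the comparisons recovered 90.5 to 100% of them, with 1.00 to 7.94% of calls false. The simulated libraries of a comparison shared a single pooled profile apart from these genes, with a dispersion of 0.01. In the data 60.8 to 84.4% of the genes passed, so the simulation cannot show how the fits behave under changes that wide. Replicates of a group differed by more than sampling noise (chi-square per degree of freedom 3.23 to 9.17).

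TARDBP, the gene lists and the rules for named genes were chosen with earlier results of these data known. The rule named TARDBP in every library, the 5 genes most like it and every gene within 100 kb. It also named the 4 genes NAT10, PCBP1, PCBP2 and THUMPD1, and at most 3 members of each other list by size of change. POLDIP3 and the further importins were named after their values were seen. From the list of TDP43-related proteins 1 gene is not reported here.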

Additional observations from a re-analysis of the deposited data

Results flagged for a closer look

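The change of IP over IgG between the genotypes passed the interaction test for TARDBP, at -0.47 on the log2 scale (SE 0.144; edgeR adjusted p = 0.00462; 17 libraries), so the difference of IP and IgG was not the same in WT (0.31) and in siTDP43 (-0.22). It was negative in the 17 fits that left out 1 library, from -0.60 to -0.28, and under the 10 other settings, from -1.43 to -0.41. Without the first siTDP43 IgG library it was -0.28 (adjusted p = 0.0793). That library had 88.1 CPM of TARDBP, against 66.0 and 58.0 CPM in the other siTDP43 IgG libraries.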

How the results depend on the processing

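Between the genotypes TARDBP kept its direction and its side of the threshold in input and IP under the 11 other settings and without any 1 library (-0.60 to -0.54 in input, -0.82 to -0.74 in IP). WT IP against IgG did so too (0.25 to 0.38 without 1 library), and the number of genes called never moved by over 1.5 times in 248 refits. With libraries scaled to GAPDH the values were 1.55 in WT IP against input, 0.37 in WT IgG against input, 0.034, 0.18 and -0.14 in siTDP43 IP against input, IP against IgG and IgG against input, -0.65 between genotypes in IgG, and -1.52 and -0.51 for the changes of IP and IgG over input, both of which passed. With the GC trend removed they were 0.31 between genotypes in IgG, 0.11 in WT IP against input, -0.087, -1.15 and 1.06 in siTDP43 IP against input, IP against IgG and IgG against input, and 1.28 for the change of IgG over input. Total counts gave -0.70 between genotypes in IgG, and -0.48 and -0.031 for the changes of IP and IgG over input. limma gave -0.68, -0.44 and -0.033 for the same 3, and 0.014 in siTDP43 IP against IgG. With total counts and with limma the difference between genotypes in IgG and the change of IP over input passed. DESeq2 gave -0.24 and 0.46 for the changes of IP and IgG over input, which passed, and its size factors in edgeR 0.46 for that of IgG. The filter at a mean of 50 counts gave -0.18 in siTDP43 IgG against input and 0.36 for the change of IgG over input. All 17 libraries in 1 fit gave -0.29 between genotypes in IgG (adjusted p = 0.0239). The cause of these moves was not tested.

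Without 1 library the values ran from -0.43 to -0.12 between genotypes in IgG, from -0.35 to -0.021 in siTDP43 IP against IgG, from -0.51 to -0.18 in siTDP43 IgG against input, from -0.60 to -0.28 for the change of IP over IgG, and from 0.10 to 0.42 for that of IgG over input, which passed without the second WT IgG library or without the second or the third siTDP43 IgG library (adjusted p = 0.0487, 0.048 and 0.0076). Same-numbered libraries did not deviate together (residual correlations from -0.02 to 0.03 across genes). Noise of each library can hide a shared culture, so whether the numbers pair the libraries is not known. With the replicate number as a block the difference between genotypes was -0.57 in input, and no TARDBP call changed. In siTDP43 IgG, 163 counts in a library limit the precision.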
